A study of Mus musculus with 16 samples.

Results

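Transcription factors that mark where a forebrain cell comes from were followed in tissue of adult mice: the zinc finger genes Zic1, Zic2, Zic4 and Zic5, and the homeobox genes Emx1, Emx2, Gsx2 and Nkx2-1. They were chosen by name, as every probe set annotated to 1 of these genes, and they make up 8 of the 19938 genes measured, with 10 probe sets between them. Affymetrix arrays, 16 in all with 1 sample each, measured RNA from the subependymal zone (SEZ), the stem cell niche along the lateral ventricle, and from the olfactory bulb's core (OB), the place where neurons born in that niche settle. Each tissue had 3 conditional knockout (cKO) samples, with genotype GlastCreERT2/Brg1fl/fl, and 5 control samples, with genotype GlastCreERT2/Brg1fl/+, except that SEZ control replicate 5 is given as GlastCreERT2/Brg1+/+. All mice were 2.5 months old, on a mixed background of C57BL/6 and CD1, and carried a tamoxifen-dependent Cre recombinase driven from the Glast locus. That locus is active in astroglia and the stem cells among them, so the dissected tissue mixes cells that could recombine with cells that could not, and all but 1 of the controls carried 1 floxed copy themselves. The labels give no treatment and no sex, and the sources used here do not date the induction of recombination. The labels call the samples biological replicates without saying which samples came from the same animal, so p-values measure the spread between these samples.

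Neural stem cells of the adult niche keep a record of their embryonic origin, and cells in different walls of the ventricle make different kinds of olfactory bulb neuron. Zic factors mark dorsal and septal domains and persist in some bulb interneurons, Emx1 and Emx2 mark the pallium, Gsx2 marks the lateral ganglionic eminence and Nkx2-1 the medial ganglionic eminence. Brg1, encoded by Smarca4, is the motor subunit of SWI/SNF complexes, which move nucleosomes, and the series asked which genes depend on it in birthplace and destination.

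Promoter sequences are shown for 4 members whose levels differed between the tissues in the results that follow: Zic1 and Zic4, which are next to each other on chromosome 9 and were both higher in OB of controls, and Emx2 and Nkx2-1, which were both higher in SEZ. The sequences are RefSeq's, on GRCm38.p6, and each runs 5′ to 3′ from 250 bases before to 50 bases after the gene's start. Capitals mark matches on either strand to the letters of an E-box, written CACGTG, of the CCAAT box of many promoters, of a TATA box, written TATAAA, or of a core bound by homeodomain proteins, written TAATTA, and no 2 matches overlap. The windows are chr9:91365719-91366018 on the minus strand for Zic1, chr9:91368722-91369021 on the plus strand for Zic4, chr19:59458440-59458739 on the plus strand for Emx2 and chr12:56536859-56537158 on the minus strand for Nkx2-1.
Zic1: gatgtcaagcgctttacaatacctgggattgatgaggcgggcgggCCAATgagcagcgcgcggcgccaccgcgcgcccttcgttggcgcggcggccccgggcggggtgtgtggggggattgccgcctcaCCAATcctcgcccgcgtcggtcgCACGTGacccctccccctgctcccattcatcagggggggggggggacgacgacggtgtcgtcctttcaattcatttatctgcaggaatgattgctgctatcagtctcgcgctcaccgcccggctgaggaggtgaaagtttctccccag
Zic4: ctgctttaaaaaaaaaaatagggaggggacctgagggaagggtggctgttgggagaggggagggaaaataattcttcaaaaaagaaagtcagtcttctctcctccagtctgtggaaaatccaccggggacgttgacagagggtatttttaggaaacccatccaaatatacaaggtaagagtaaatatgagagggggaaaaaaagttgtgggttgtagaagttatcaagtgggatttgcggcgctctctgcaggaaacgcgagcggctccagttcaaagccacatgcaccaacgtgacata
Emx2: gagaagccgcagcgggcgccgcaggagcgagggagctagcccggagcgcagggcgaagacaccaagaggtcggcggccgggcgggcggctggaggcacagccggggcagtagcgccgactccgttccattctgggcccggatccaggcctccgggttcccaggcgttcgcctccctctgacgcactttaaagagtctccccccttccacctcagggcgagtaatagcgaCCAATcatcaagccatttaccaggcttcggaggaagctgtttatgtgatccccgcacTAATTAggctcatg
Nkx2-1: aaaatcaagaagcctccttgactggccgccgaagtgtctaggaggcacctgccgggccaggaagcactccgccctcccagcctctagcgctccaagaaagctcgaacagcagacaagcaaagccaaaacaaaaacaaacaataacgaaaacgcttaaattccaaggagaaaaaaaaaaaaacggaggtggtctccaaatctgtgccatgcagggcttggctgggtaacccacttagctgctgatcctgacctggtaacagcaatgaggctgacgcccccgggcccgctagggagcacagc
The Zic1 window held 2 CCAAT matches and 1 E-box, and the Emx2 window held 1 CCAAT match and 1 TAATTA match. The Zic4 and Nkx2-1 windows held none of these letters. Of 32851 promoters of the same length, 7.15% held CACGTG, 37.4% CCAAT, 13.6% TATAAA and 5.29% TAATTA. The neighbours also differed in base composition: the Zic1 window held 31 CpG dinucleotides, a number that 10.6% of promoters reached, and the Zic4 window 8, which 48.7% reached. Promoters of 7 of the 8 members were in the table, and Zic2 had no entry. Zic2 and Zic5 form the other neighbouring pair, on chromosome 14. A match describes letters in the window and not a binding site.

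Before the members, the labels were checked on the targeted gene and on tissue markers. Smarca4 lay between 10.62 and 11.09 log2 units on all 16 arrays, and its cKO minus control difference was 0.00 in OB (95% interval -0.12 to 0.13) and -0.01 in SEZ (-0.14 to 0.12), so its probe set did not separate the genotypes. The sources used here do not say which exons that probe set covers. Of 8 neuroblast genes, markers of young migrating neurons, 8 had estimates below 0 in OB cKO against control. Their median was -0.67 log2 units, and 2 passed at a limma adjusted p under 0.05, beside 0.0451% of all genes. In SEZ 8 of 8 were also below 0, with a median of -0.26, and 0 passed, beside 0% of all genes. The bulb markers stood apart by tissue: Eomes, of mitral and tufted cells, averaged 10.49 ± 0.25 (SD, n = 5) in OB controls and 6.29 ± 0.15 (n = 5) in SEZ controls. The SEZ samples carried ependymal RNA, with Tmem212 at 8.31 ± 0.35 against 6.73 ± 0.09 in OB, and striatal RNA, with the dopamine receptor gene Drd1 at 12.51 ± 0.11 against 8.04 ± 0.23. Fewer cells of a type and less RNA per cell cannot be told apart in bulk tissue.

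The levels of most members differed by tissue, and none differed by genotype at the threshold used. In controls, 6 of 8 members differed between OB and SEZ at an adjusted p under 0.05 (limma, Benjamini-Hochberg over 19938 genes), against 27.5% of all genes. Zic1, Zic2 and Zic4 were higher in OB, where 12.6% of all genes were called higher. Emx2, Gsx2 and Nkx2-1 were lower in OB, where 14.9% were called lower. Zic5 and Emx1 did not pass. The members' median difference was 0.15 log2 units, beside 0.00 over all genes tested. In cKO tissue 5 of 8 passed, 2 higher and 3 lower in OB, against 23.1% of all genes, 10.0% higher and 13.1% lower.

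**Figure D1:**
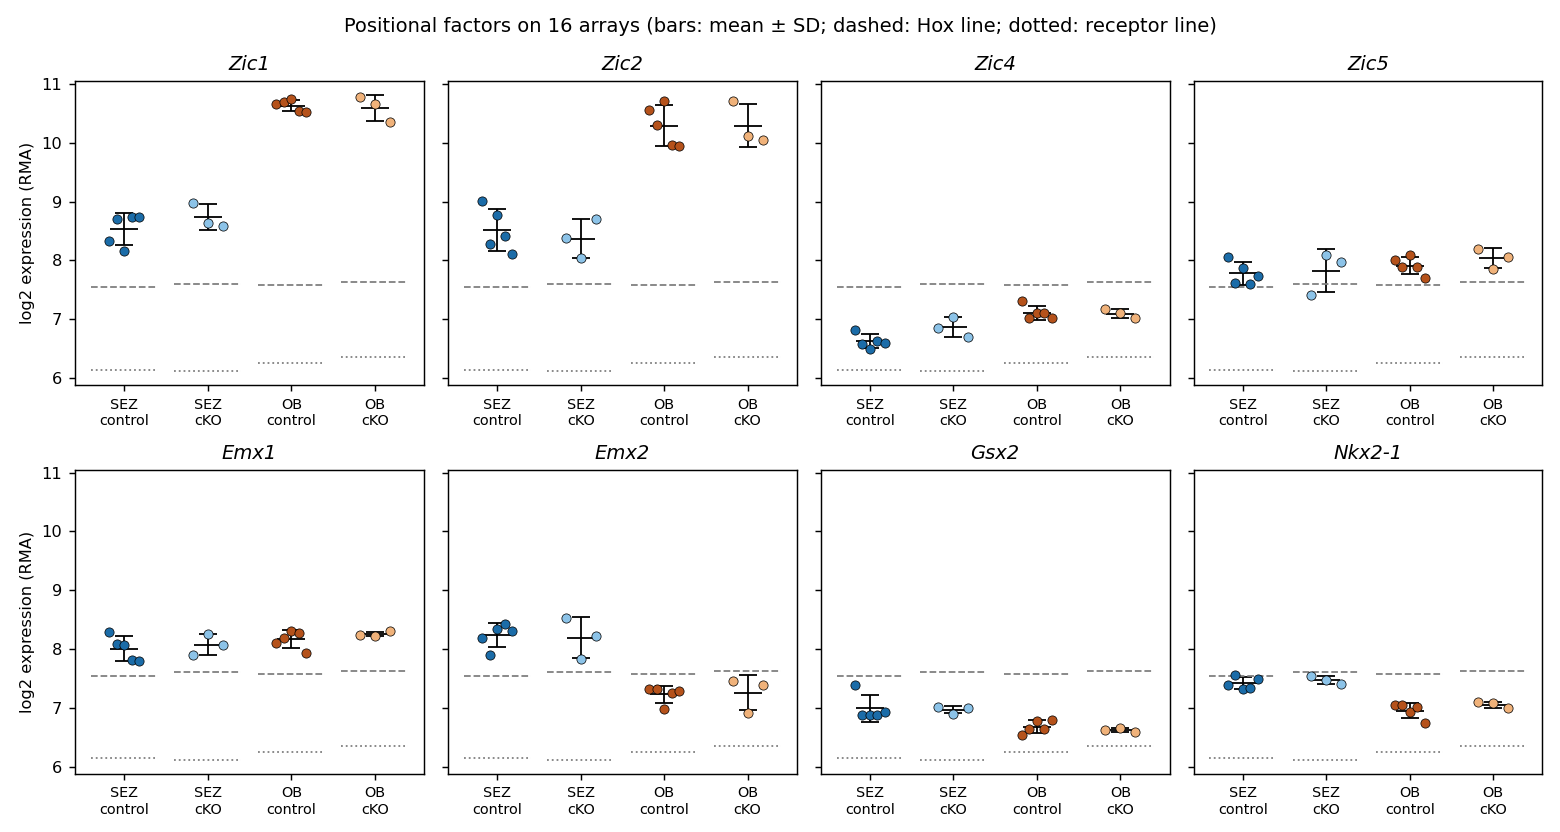
Log2 expression (vertical axis) of the 8 factors on each of 16 arrays, 1 point per array, in SEZ and OB of control (n = 5) and cKO (n = 3) mice, with bars for mean ± SD. The dashed mark in each group is the 95th percentile of 37 Hox genes and the dotted mark that of 151 chemoreceptor genes. Zic1 and Zic2 sit at 9.94 or above in OB and at 9.002 or below in SEZ, Emx2 sits higher in SEZ, and Zic4, Gsx2 and Nkx2-1 lie under the dashed mark in every group mean.

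How far each factor stood above the array's background was judged against genes that adult brain is not known for. By the 95th percentile of 151 vomeronasal and taste receptor genes (Vmn1r and Tas2r), at 6.12 to 6.35 log2 units across the 4 groups, 0 of 8 members were at low signal. By the 95th percentile of 37 Hox genes, patterning factors of the trunk and hindbrain, at 7.55 to 7.63, Zic4, Gsx2 and Nkx2-1 were low in all 4 groups and Emx2 was low in OB only. Probes differ in how brightly they respond, so these marks are rough. The differences given for Zic4, Gsx2 and Nkx2-1 lie at this low end of the scale, and those of Emx2 are taken against a low OB level.

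Zic1, which encodes a zinc finger factor of the dorsal midline, septum and later bulb interneurons, showed the largest tissue difference of the 8 in controls. In OB controls it measured 10.66, 10.70, 10.75, 10.54 and 10.52 in replicates 1 to 5, and in OB cKO 10.78, 10.65 and 10.34. In SEZ controls it measured 8.33, 8.71, 8.16, 8.74 and 8.75, and in SEZ cKO 8.98, 8.64 and 8.58. Every OB array was above every SEZ array. The share of all genes whose tissues separate without overlap was not counted, for Zic1 or for the members that follow. The OB minus SEZ difference in controls was 2.09 ± 0.12 (SE) log2 units, a 4.27-fold higher level (limma adjusted p = 5.19e-10), and in cKO it was 1.86 ± 0.16, or 3.62-fold (adjusted p = 1.01e-07).

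Within SEZ, Zic1 was lower on the arrays that were higher in markers of ependymal cells, the ciliated lining of the ventricle. SEZ control replicates 1 and 3, the lowest in Zic1, had ependymal list means of 8.14 and 8.15 over 7 of 7 genes. The other 3 controls, all above 8.7 in Zic1, had means from 7.71 to 7.82. In SEZ cKO replicates 1 to 3 the means were 7.91, 8.04 and 8.12, in the reverse order of Zic1. In OB the same list averaged 6.74 to 6.91, which is lower than in any SEZ array, and all 7 ependymal genes were lower in OB of controls. Over 16 arrays with each group's mean removed, Zic1 and this list had r = -0.82, the value farthest from 0 for any member and list. Zic1 also had r = 0.67 with the astrocyte and stem cell list and -0.61 with the striatal list. The astrocyte and stem cell list includes Slc1a3, the Glast gene. Slc1a3 was 8.85 in OB cKO replicate 3 and 8.16 in SEZ cKO replicate 3, and 11.16 to 12.27 on the other arrays. Both of these replicates were also the lowest of their group in Zic1. The part of Slc1a3 in that r was not tested. With the ependymal list the other members ranged from -0.39 for Nkx2-1 to 0.61 for Emx1. The part of ependymal content in the Zic1 values was not tested.

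Zic2, the relative of Zic1 in the chromosome 14 pair, had the largest tissue difference after Zic1 in controls and the largest of the 8 in cKO. Its values were 10.56, 10.30, 10.70, 9.95 and 9.94 in OB controls and 10.71, 10.12 and 10.04 in OB cKO. In SEZ they were 9.002, 8.28, 8.77, 8.42 and 8.11 in controls and 8.39, 8.03 and 8.70 in cKO. The 2 tissues did not overlap in either genotype, although Zic2 spread more widely than Zic1 inside OB. In controls the difference was 1.77 ± 0.20, or 3.42-fold (limma adjusted p = 1.70e-06), and in cKO 1.92 ± 0.25, or 3.78-fold (adjusted p = 1.91e-05).

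Meninges are a known site of Zic expression in the head, and 3 OB arrays stood out in a list of 13 meningeal and fibroblast genes. The list mean was 8.12 in OB cKO replicate 1 and 7.93 in OB control replicates 1 and 2, while the other 5 OB arrays lay at 6.95 to 7.31 and SEZ arrays at 7.05 to 7.20. The collagen-binding proteoglycan gene Dcn ranged from 7.79 to 10.32 in OB controls. The meningeal forkhead gene Foxc1 averaged 6.99 ± 0.17 (n = 5) in OB controls and 7.05 ± 0.02 (n = 5) in SEZ controls. Zic2 was high in OB cKO replicate 1 and control replicate 1, intermediate in control replicate 2, and as high in control replicate 3, whose list mean was 7.31. Without those 3 arrays the OB minus SEZ difference in controls was 1.68 ± 0.22 for Zic2 and 2.06 ± 0.15 for Zic1. The meningeal and fibroblast list was not particular to Zic genes. With each group's mean removed, its r was 0.57 with Nkx2-1, 0.49 with Zic2, 0.40 with Zic4 and 0.35 with Zic1. The other members ranged from -0.19 for Gsx2 to 0.31 for Emx2. The part of meningeal content in the members' values was not tested.

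**Figure D2:**
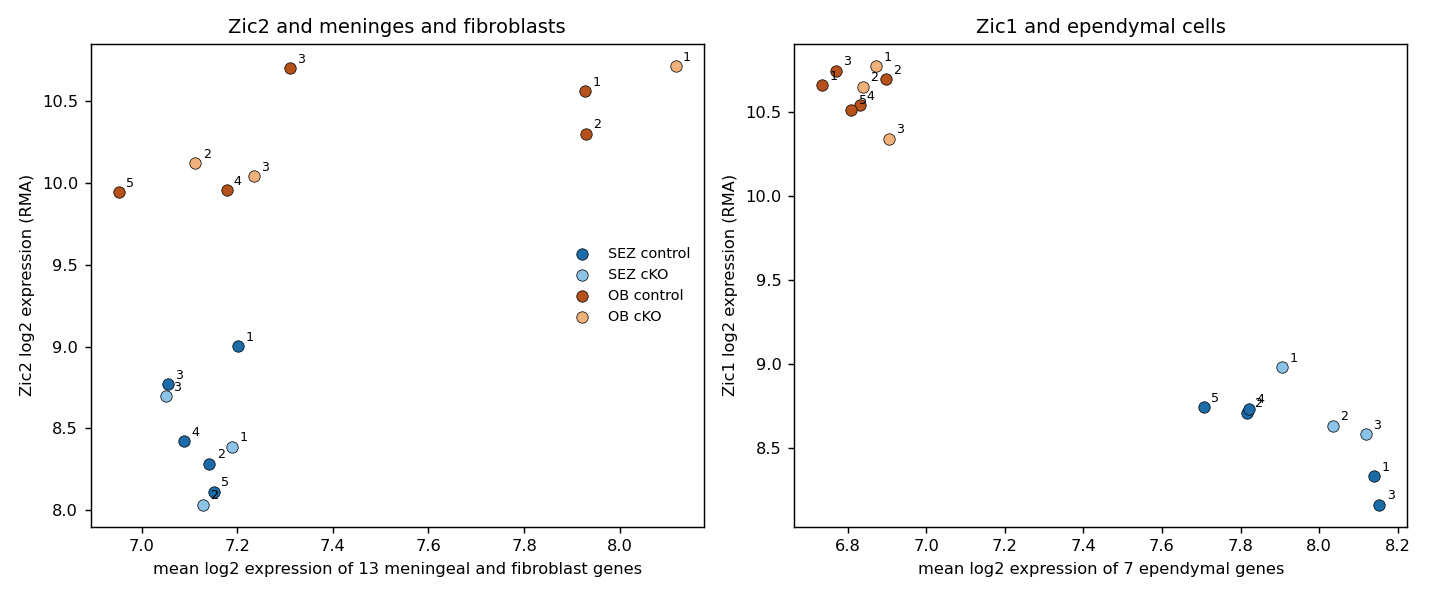
Left, Zic2 log2 expression against the mean of 13 meningeal and fibroblast genes; right, Zic1 against the mean of 7 ependymal genes, 1 point per array with its replicate number. OB cKO replicate 1 and OB control replicates 1 and 2 lie at 7.93 to 8.12 on the meningeal axis, and in SEZ the arrays lowest in Zic1 lie at 8.14 and 8.15 on the ependymal axis.

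Zic4, which encodes the partner of Zic1 in the chromosome 9 pair, was higher in OB of controls on its brighter probe set, at low signal. It measured 7.31, 7.02, 7.10, 7.10 and 7.03 in OB controls and 7.17, 7.10 and 7.01 in OB cKO. In SEZ controls it measured 6.82, 6.59, 6.50, 6.63 and 6.61, all below the OB controls. In SEZ cKO it measured 6.85, 7.04 and 6.70, which overlapped with OB cKO. The difference was 0.49 ± 0.08 in controls (limma adjusted p = 0.000126) and 0.23 ± 0.10 in cKO (adjusted p = 0.118). Without SEZ cKO replicate 2 the cKO difference was 0.32 and passed (adjusted p = 0.0441, with 0.0441 to 0.646 over its 16 alternatives).

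Both Zic4 and Zic5 had a second, dimmer probe set, which correlated with the brighter one at r = 0.21 for Zic4 and 0.39 for Zic5 over 16 arrays after each group's mean was removed. The second Zic4 probe set ranged from 6.06 to 6.74 in OB controls and from 6.15 to 6.51 in SEZ controls, and its tissue difference in controls was 0.04 (limma adjusted p = 0.877 over 35556 probe sets). In cKO its difference had the opposite sign, at -0.07 (adjusted p = 0.809). With the mean of both probe sets, the Zic4 difference was 0.26 in controls (adjusted p = 0.0167) and 0.08 in cKO (adjusted p = 0.646). Zic5, a Zic factor of the dorsal neural tube, measured 8.004, 7.88, 8.09, 7.89 and 7.70 in OB controls and 8.06, 7.62, 7.86, 7.61 and 7.73 in SEZ controls on its brighter probe set. Its cKO values were 8.20, 7.86 and 8.05 in OB and 7.41, 8.09 and 7.97 in SEZ. The tissues overlapped in both genotypes, with differences of 0.13 ± 0.12 (adjusted p = 0.505) and 0.22 ± 0.16 (adjusted p = 0.397). The second Zic5 probe set gave 0.37 in controls (adjusted p = 0.212) and 0.42 in cKO (adjusted p = 0.283), so it did not pass either. On the same measure the second Zic5 probe set correlated with Zic2 at r = 0.81.

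Emx2, a pallial homeobox gene also known in adult neural stem cells, was the clearest member on the SEZ side. It measured 8.18, 7.91, 8.34, 8.43 and 8.31 in SEZ controls and 8.54, 7.83 and 8.22 in SEZ cKO. In OB it measured 7.33, 7.32, 6.98, 7.26 and 7.29 in controls and 7.46, 6.91 and 7.40 in cKO. No OB array reached the lowest SEZ array. The measured log2 difference was -0.999 ± 0.14 in controls (limma adjusted p = 1.84e-05) and -0.94 ± 0.18 in cKO (adjusted p = 0.000644). Both OB means lay under the Hox line, so no fold is given.

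Emx1, the other pallial homeobox gene and a mark of cortical progenitors and their neurons, did not pass between the tissues. It measured 8.29, 8.08, 8.07, 7.82 and 7.80 in SEZ controls and 8.10, 8.19, 8.31, 8.28 and 7.93 in OB controls. In cKO it measured 7.90, 8.26 and 8.08 in SEZ and 8.24, 8.23 and 8.31 in OB. All 4 groups overlapped. The OB minus SEZ difference was 0.16 ± 0.10 in controls (limma adjusted p = 0.302) and 0.18 ± 0.13 in cKO (adjusted p = 0.373). Slc17a7, a vesicular glutamate transporter gene of cortical neurons, was 10.58 and 11.06 in SEZ control replicates 2 and 4, and 8.44 to 8.98 in the remaining SEZ controls. In SEZ cKO it was 8.04, 8.68 and 7.84, so both high arrays were controls. The median cKO minus control difference of 9 cortical genes in SEZ was -0.32, with 0 passing. The part of cortical content in the members' genotype differences was not tested. Emx1 in SEZ control replicates 2 and 4 was 8.08 and 7.82, within the range of the other SEZ controls.

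The ventral factors lay at low signal and were both lower in OB. Nkx2-1 measured 7.40, 7.56, 7.33, 7.35 and 7.49 in SEZ controls and 7.54, 7.47 and 7.41 in SEZ cKO. In OB it measured 7.05, 7.05, 6.92, 7.02 and 6.74 in controls and 7.10, 7.08 and 6.99 in cKO. The tissues did not overlap in either genotype. The difference was -0.47 ± 0.07 in controls (limma adjusted p = 4.49e-05) and -0.42 ± 0.09 in cKO (adjusted p = 0.00194).

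Gsx2, the lateral ganglionic eminence factor, measured 7.39, 6.89, 6.89, 6.88 and 6.93 in SEZ controls and 7.02, 6.90 and 6.998 in SEZ cKO. In OB it measured 6.55, 6.64, 6.78, 6.64 and 6.80 in controls and 6.62, 6.66 and 6.59 in cKO. SEZ control replicate 1 stood above the other 4. The tissues did not overlap in either genotype, and leaving out this array, the highest in SEZ, could not change that. The difference was -0.31 ± 0.09 in controls (limma adjusted p = 0.0152) and -0.35 ± 0.12 in cKO (adjusted p = 0.0393). Neither call held everywhere: the control difference was -0.25 (adjusted p = 0.138, with 0.00941 to 0.138 over its 20 alternatives) without the 3 OB arrays high in meningeal genes, and the cKO call was lost without any 1 of the 6 cKO arrays, with adjusted p from 0.0546 to 0.116.

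**Figure D3:**
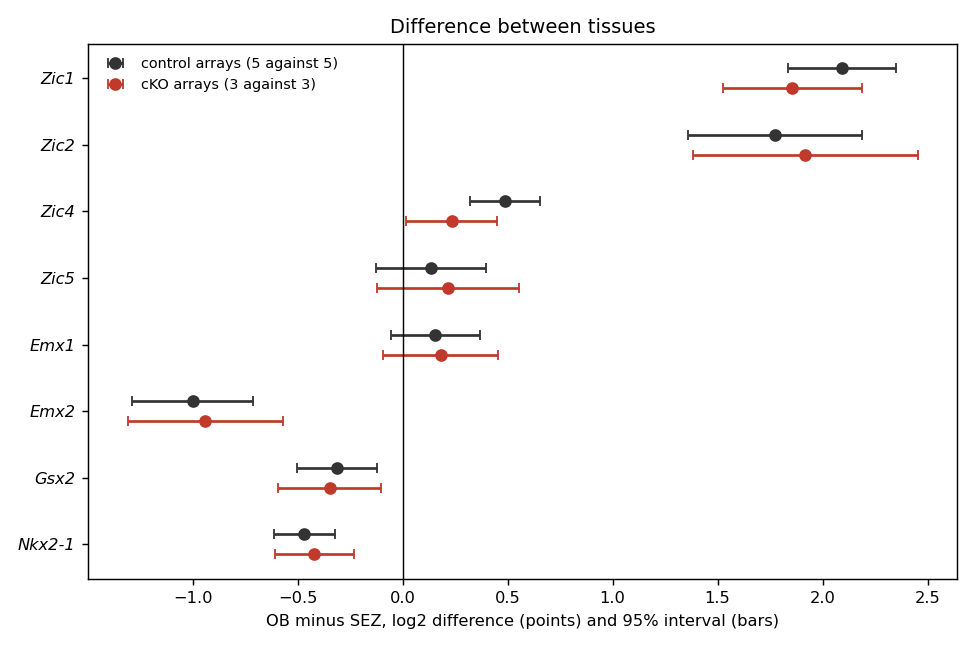
OB minus SEZ log2 difference (horizontal axis) for each factor, with 95% intervals from limma as bars, in controls (5 against 5 arrays) and cKO (3 against 3). Zic1 lies at 2.09 and 1.86 and Zic2 at 1.77 and 1.92, Emx2 lies at -0.999 and -0.94, and the intervals of Zic5 and Emx1 cross 0 in both genotypes.

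Between genotypes, 0 of 8 members passed in OB, where 0.0451% of all genes did (9 of 19938), and 0 of 8 passed in SEZ, where 0% did (limma, adjusted p under 0.05). At an unadjusted p under 0.05, 0 members stood out in OB beside 700 of all genes, and 1 member, Zic4, stood out in SEZ beside 492. The intervals show what size of change these arrays could have missed. For Zic1 the cKO minus control difference was -0.04 in OB (95% interval -0.34 to 0.26) and 0.20 in SEZ (-0.10 to 0.49). The SEZ value was 0.07 without cKO replicate 1 and 0.10 without control replicate 3, and it ranged from 0.07 to 0.32 over its 19 alternatives. For Zic2 the intervals were wider, from -0.48 to 0.48 in OB and from -0.62 to 0.33 in SEZ. For Nkx2-1 they were the narrowest, from -0.07 to 0.27 in OB and from -0.12 to 0.22 in SEZ. Nkx2-1 was low by the Hox line in all 4 groups. Its narrow intervals therefore may not bound a change in its RNA more tightly than those of brighter members.

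Of the other factors, Zic5 differed by 0.12 in OB (-0.18 to 0.43) and 0.04 in SEZ (-0.26 to 0.35). Emx1 differed by 0.09 in OB (-0.15 to 0.34) and 0.07 in SEZ (-0.18 to 0.31), and Emx2 by 0.02 (-0.31 to 0.35) and -0.04 (-0.37 to 0.29). Gsx2 differed by -0.06 in OB (-0.28 to 0.16) and -0.02 in SEZ (-0.24 to 0.20). These intervals leave room for a change of either sign, and a difference that misses the threshold does not show equal levels. The members' medians were 0.01 in OB and 0.05 in SEZ, beside -0.01 and 0.00 over all genes.

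Zic4 in SEZ was the member closest to a genotype difference. Its cKO arrays, at 6.85, 7.04 and 6.70, lay 0.24 ± 0.09 log2 units above the controls (95% interval 0.04 to 0.43), and the lowest of them was below control replicate 1, at 6.82. The unadjusted p was 0.0197 and the limma adjusted p was 1.00. Without SEZ cKO replicate 2 the difference was 0.15, and it ranged from 0.15 to 0.32 over its 19 alternatives, none of which passed. On the second Zic4 probe set, which lay near the receptor line, it was 0.14 (limma unadjusted p = 0.302). In OB the difference was -0.02 (-0.21 to 0.18). The SEZ effect minus the OB effect was 0.25 ± 0.13 (unadjusted p = 0.068), and 0 of 8 members passed this test of the difference by limma's adjusted p, beside 0.00502% of all genes. At an unadjusted p under 0.05 there were 0 of 8 members and 296 genes.

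**Figure D4:**
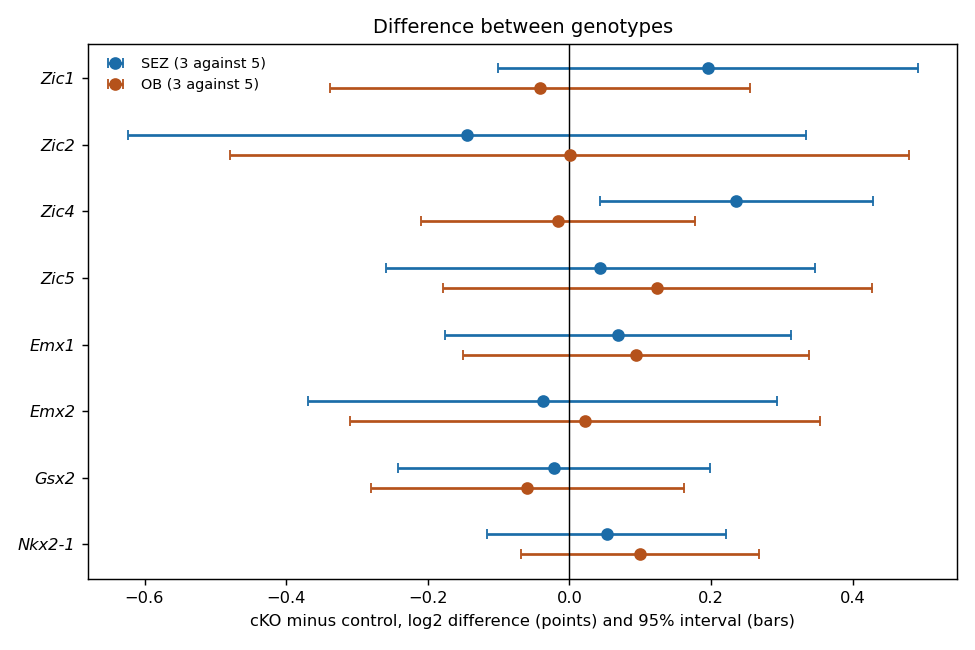
The cKO minus control log2 difference (horizontal axis) for each factor in SEZ and OB (3 against 5 arrays each), with 95% intervals from limma as bars. All intervals cross 0 except that of Zic4 in SEZ, from 0.04 to 0.43, which did not pass after adjustment over all genes.

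A wider list of forebrain patterning factors, of which 29 of 32 had a value, was fitted in the same model. In cKO against control, with medians of 0.01 in OB and -0.03 in SEZ, 0 of 29 passed in either tissue by limma's adjusted p, and at an unadjusted p under 0.05 there were 0 in OB and 2 in SEZ. Between OB and SEZ of controls, 9 of 29 were higher and 9 lower in OB, beside 12.6% and 14.9% of all genes. Among those higher were Eomes at 4.19 log2 units, Sp8, a factor of bulb interneurons, at 2.67, and Dlx1, a factor of GABAergic precursors, at 2.31. Pax6, a factor of dopaminergic periglomerular cells and their precursors, was higher by 1.79, with Dlx2 at 1.64 and Dlx5 at 1.06. Those lower in OB included Ebf1 and Isl1, which mark striatal projection neurons, at -2.32 each, and Six3 at -1.86. Gli3, a hedgehog pathway factor, was at -1.30, and Lhx6 and Lhx8, factors downstream of Nkx2-1 in ventral neurons, were at -1.07 and -0.99. In cKO tissue 10 of 29 were higher and 7 lower in OB, beside 10.0% and 13.1% of all genes.

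The wider list's median OB minus SEZ difference was 0.00 in controls and -0.04 in cKO, beside 0.00 and -0.02 over all genes. In cKO the factors farthest from 0 were Eomes at 4.22, Sp8 at 2.87 and Dlx1 at 2.79 on the OB side, and Isl1 at -2.27 and Ebf1 at -2.25 on the SEZ side. Some cell type lists had many genes called between the tissues of controls, and others had few. Of 9 astrocyte and stem cell genes, 1 was higher and 1 lower in OB. Of 13 meningeal and fibroblast genes, 1 was higher, and of 7 hypothalamic genes, 1 was higher. Over all genes, 12.6% were called higher and 14.9% lower in OB of controls. In OB of controls, 8 of 8 granule and periglomerular genes were higher, 6 of 7 mitral and tufted genes were higher and 7 of 7 striatal genes were lower. Of 7 genes listed for septal and basal forebrain cholinergic neurons, 5 were lower and 1 was higher in OB. Whether their RNA in SEZ came from septal or from striatal tissue cannot be told apart here. Chat, the acetylcholine-synthesising enzyme gene, was among the lower ones, at 6.61 ± 0.13 (n = 5) in OB and 7.91 ± 0.23 (n = 5) in SEZ, and Ngfr, a neurotrophin receptor gene, was the higher one, at 8.42 ± 0.18 and 8.16 ± 0.15. What part each cell type had in the members' differences was not tested.

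The genes that most resembled each factor were taken over 16 arrays after the mean of each group was removed, so that tissue and genotype did not enter. For Zic1 these were Olfm1, a secreted glycoprotein gene of neurons (r = 0.93), Mgat4c (0.92) and AI987944 (0.92). For Zic2 they were Tubg2, a gamma-tubulin gene, Cdipt and Rell2, with r from 0.94 to 0.95. For Zic5 they were Kcnj1, Pmf1 and Vsig2, from 0.95 to 0.97. For Emx1 they were Col19a1, Bhmt2 and Tjp3, from 0.94 to 0.96.

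The matches of the remaining 4 members had lower r. Those of Emx2 were Gpr82, B130055M24Rik and Gfra1, a GDNF family receptor gene, with r from 0.82 to 0.86. Those of Nkx2-1 were Caskin2, Itgb4 and Hapln3, from 0.82 to 0.87. Those of Zic4 were Tmem252, Spef1l and F630028O10Rik, from 0.82 to 0.87. Those of Gsx2 were Vmn2r79, Celf6 and Olfr976, from 0.86 to 0.89, and 2 of these 3 are chemoreceptor genes. These are the highest values over all other genes measured, from arrays that share hybridisation and normalisation, and they are given as a description.

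Among the members themselves, Zic5 and Emx1 were the most alike pair (r = 0.72, Spearman's rho = 0.70) and Emx1 and Emx2 the least (r = -0.53, rho = -0.51). The neighbours Zic1 and Zic4 had r = 0.15 and the neighbours Zic2 and Zic5 r = 0.50, all over 16 arrays.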

How the data were processed

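Total RNA of 16 samples was labelled with biotin and hybridised 1 sample per array, per the labels' protocols. Each probe set has a deposited log2 expression value, which the authors made with RMA in Affymetrix Expression Console 1.2, per the submitters' processing notes. The sources used here do not give the genome build behind the probe sets. RMA includes background correction and quantile normalisation, so array medians lay between 7.45 and 7.65, and precision is limited by how many arrays there are.

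The arrays hold 35556 probe sets: 21789 carry 1 gene symbol, 1621 carry several and 12146 carry none. A RefSeq table (GRCm38.p6), matched on Entrez identifiers, held 21698 of the symbols, and 0 changed. The brightest probe set stood for each of the 999 genes with more than 1, which left 19938 genes. A linear model over all arrays (limma 3.58.1, R 4.3.3; lmFit and eBayes; 4 groups, no covariate, 12 residual and 4.34 prior degrees of freedom) gave two-sided p-values, with Benjamini-Hochberg adjustment across the 19938 genes and a threshold of 0.05. The model was tested on simulated data.

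The members and lists were chosen with earlier results of these data known. The rule for named genes took the 8 members and up to 6 wider factors per direction by size. It also took the 3 genes most like each member by Pearson's r, and defining cell type markers. Foxc1, Dcn, Tmem212, Drd1, Chat, Slc1a3 and Slc17a7 are such markers. Same-numbered OB and SEZ controls deviated together from their group means over all genes (r from 0.17 to 0.57), while cKO numbers did not all do so (r from -0.06 to 0.39). Some differently numbered controls correlated as highly (OB 5 with SEZ 4 at 0.42, OB 3 with SEZ 1 at 0.41). All printed tests are unpaired, and the number enters only in the block alternatives. Alternatives covered the replicate block, normalisation, filter, probe set handling, variance model, arrays left out and the low-signal line. The Hox line, the fit of single probe sets and the fit without 3 OB arrays were added after seeing the data.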

Additional observations from a re-analysis of the deposited data

Results flagged for a closer look

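In 3 of the 20 groups of 5 control arrays, counted over all 10 probe sets, 1 array lay farther from the rest than Dixon's 95% limit for a group of that size, and chance alone would mark about 1 group in 20. Emx2 in OB control replicate 3 was 6.98, below the other 4 at 7.26 to 7.33. Gsx2 in SEZ control replicate 1 was 7.39, above the other 4 at 6.88 to 6.93, and without it the OB minus SEZ difference in controls was -0.21 (limma adjusted p = 0.0161). Zic4 in OB control replicate 1 was 7.31, above the other 4 at 7.02 to 7.10.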

How the results depend on the processing

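The number of members past the threshold stayed at 0 in both genotype comparisons and in their difference under every alternative run, at 5 to 6 in OB against SEZ of controls and at 4 to 5 in cKO. Members at low signal in all 4 groups were 3 with the median of all probe sets or the Hox genes as the line, and 0 with the receptor genes. Gsx2 in cKO lost its call with arrays centred on medians (adjusted p = 0.0534), without cKO replicate 1 of both tissues (0.206), without the 3 OB arrays high in meningeal genes (0.113) and with each probe set fitted on its own (0.0645). With the replicate block, as a random block of genotype and number (correlation 0.18) or as a fixed number, no member gained or lost a call, and Zic1 in controls stayed at 2.09.

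Signs turned only in values that did not pass. With the number as a fixed block, Zic2 in OB was -0.20, and in SEZ Zic5 was -0.032, Emx1 -0.019 and Emx2 0.020. Without cKO replicate 1 of both tissues, Zic2 in OB was -0.21 and Emx2 -0.078, the SEZ minus OB effect was 0.059 for Zic2, 0.21 for Zic5 and 0.055 for Emx1, and Zic5 was -0.072 between OB and SEZ of cKO. Without the 3 OB arrays Zic2 in OB was -0.12 and Emx2 -0.019. Without SEZ control replicates 2 and 4, Zic5 in SEZ was -0.065 and the effect difference of Gsx2 -0.038. Cyclic loess gave Zic1 in OB 0.012, and the mean of probe sets gave Zic4 0.0050. Leaving out 1 array at a time, the cKO difference in OB ranged from -0.13 to 0.082 for Zic1, -0.21 to 0.13 for Zic2, -0.054 to 0.034 for Zic4 and -0.078 to 0.19 for Emx2. In SEZ it ranged from -0.31 to 0.025 for Zic2, -0.092 to 0.25 for Zic5, -0.022 to 0.16 for Emx1, -0.21 to 0.15 for Emx2 and -0.051 to 0.078 for Gsx2. The effect difference ranged from -0.31 to 0.066 for Zic2, -0.22 to 0.13 for Zic5, -0.12 to 0.065 for Emx1, -0.23 to 0.12 for Emx2 and -0.081 to 0.0063 for Nkx2-1. The causes were not tested.

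Over all genes, 9 passed in OB cKO against control. The count was 5 with cyclic loess, a fixed number block, or without cKO replicate 1 or the 3 OB arrays, 3 with OB arrays alone, and 2 to 9 when 1 array was left out, at 5 where OB control replicate 4 or 5 was missing and at 2 where OB cKO replicate 3 was. In SEZ it was 0, and 2 with the fixed block. In cKO between tissues it was 4614, and 2996 without cKO replicate 1 of both tissues. Centring on medians moved the controls' split from 2512 higher and 2979 lower in OB to 2800 and 2781.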
